A study of Homo sapiens with 2 samples.

Results

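Basal and stress keratins in MCF10A cells are described here through 7 genes: KRT5, KRT14, KRT15, KRT6A, KRT6B, KRT16 and KRT17. They were taken by name from the deposited gene tables, all 7 were present in both, and the tables share 16387 genes in all. MCF10A is a non-tumorigenic human breast epithelial cell line grown in culture. The cells were left unstimulated or given EGF, a growth factor that activates the ERK and PI3K pathways through its receptor. A MEK or a PI3K inhibitor was added 15 h after EGF, and single cells were profiled to ask what each arm of the signal does to expression at 20 h and 30 h. The 8 conditions were unstimulated cells, EGF for 15 h, 20 h and 30 h, and EGF with the MEK or the PI3K inhibitor at 20 h and 30 h. Which compounds these were, and at what dose, is not stated in the sources used here. Cells of each condition were labelled with a sample tag, pooled, fixed in methanol and sequenced as 1 library per biological replicate, so that each condition has 2 libraries.

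Keratins are the intermediate filament proteins of epithelia, and a filament is built from pairs of 1 type I and 1 type II protein. KRT5 (type II) and KRT14 (type I) form the filaments of the basal layer of stratified and pseudostratified epithelia, and KRT15 is a type I keratin of basal cells and hair follicle stem cells. KRT6A and KRT6B (type II) and KRT16 and KRT17 (type I) are the stress keratins, which epidermis makes after wounding and in hyperproliferative disease. Breast epithelial lines of basal character such as MCF10A are known to express both groups.

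The type II genes lie together on chromosome 12 and the type I genes on chromosome 17, all on the minus strand (GRCh38, GENCODE release 29). KRT5 spans chr12:52514575-52520687, KRT6A chr12:52487174-52493257 and KRT6B chr12:52446651-52452126, each with 9 exons. KRT15 spans chr17:41513743-41522529 with 10 exons. KRT14 spans chr17:41582279-41586921, KRT16 chr17:41609778-41615899 and KRT17 chr17:41619441-41624842, each with 8 exons. Because near-identical copies can exchange reads, the last 60 bases of each coding sequence, up to and including the stop codon, are shown for the genes that are most alike. Lower case marks bases equal to the first gene of the group and capitals mark bases that differ, counted back from the stop codon without gaps. The type I sequences are set against KRT14:
KRT14: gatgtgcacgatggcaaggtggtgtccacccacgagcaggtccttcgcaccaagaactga
KRT16: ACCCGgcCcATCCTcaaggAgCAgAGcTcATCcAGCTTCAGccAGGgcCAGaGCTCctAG
KRT17: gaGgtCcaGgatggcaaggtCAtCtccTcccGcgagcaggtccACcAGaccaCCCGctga
The type II sequences are set against KRT6A:
KRT6A: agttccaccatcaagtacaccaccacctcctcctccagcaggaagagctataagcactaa
KRT6B: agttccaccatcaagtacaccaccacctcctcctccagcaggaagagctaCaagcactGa
KRT5: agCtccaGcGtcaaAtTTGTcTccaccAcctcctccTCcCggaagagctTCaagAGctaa

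KRT6A and KRT6B differed at 2 of these 60 bases, KRT5 and KRT6A at 17, KRT14 and KRT17 at 16, and KRT14 and KRT16 at 40. Over the whole coding sequence KRT6A and KRT6B were 97.5% identical, KRT14 and KRT16 85.2% and KRT14 and KRT17 78.0%. Of all runs of 60 bases in the transcript, another gene shared 42.3% for KRT6B, 33.1% for KRT6A, 16.7% for KRT14, 15.0% for KRT16 and 10.7% for KRT17. For KRT5 the share was 3.03% and for KRT15 0.300%. In the last 500 bases of the transcript the shared runs numbered 0 for KRT5, KRT15, KRT6A and KRT6B, 8.16% for KRT14, 9.30% for KRT16 and 0.454% for KRT17. KRT6C alone shared 30.6% of all runs of KRT6A and 40.5% of those of KRT6B. In the last 500 bases KRT14 and KRT16 shared 0 runs with each other. There the pseudogene KRT16P6 shared 8.16% of the KRT14 runs and KRT16P3 8.84% of the KRT16 runs. Since the sources used here do not state which part of the transcript was read, levels of KRT6A against KRT6B, and of KRT14 against KRT16, are uncertain by reads that may belong to the other gene, to KRT6C or to a pseudogene.

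The tables held 2616 cells in library 1 and 2221 in library 2, with 3141 to 31090 unique molecular identifiers (UMIs, counted molecules) per cell and 33089090 and 28542571 UMIs in all. A condition had 29 to 616 cells per library, fewest in library 2 for unstimulated cells (29) and EGF at 15 h (64). Tag doublets made up 56.1% and 40.2% of all barcodes in the tag tables, untagged ones included, and are not in the count tables, and the libraries share 0 cell barcodes. Of 8 breast epithelial marker genes, 7 reached 20 counts-per-million (CPM) in at least 1 sum, and EPCAM did not (0.698 to 12.7 CPM). CLDN4 and TP63 peaked at only 23.5 CPM, with 72 and 721 UMIs in all. Among the 7 luminal markers present in both tables, 3 reached 20 CPM. These were KRT18 (170 to 741 CPM), KRT8 (28.5 to 233) and MUC1 (17.3 to 183), while KRT19, ESR1 and FOXA1 were near 0. The fibroblast list, of which 3 of 8 genes are in both tables, summed to 6.96 to 96.3 CPM, nearly all of it DCN. No cell type in the pools is known to lack keratins, so the share of cells that free RNA would give a keratin UMI was not measured.

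Levels below are UMI counts summed over the cells of 1 condition in 1 library and expressed as CPM after TMM scaling, given for library 1 and then library 2. They are not corrected for gene length, and no level is compared between genes. KRT5, the basal type II keratin, stood at 3619 and 3551 CPM in unstimulated cells, 2498 and 3131 after 15 h of EGF, 2671 and 3105 after 20 h, and 2644 and 3115 after 30 h. MEK inhibitor cells held 3119 and 3699.9 CPM of KRT5 at 20 h and 5814 and 6204 at 30 h. PI3K inhibitor cells held 2445 and 2877 CPM at 20 h and 1824 and 2649 at 30 h. The MEK inhibitor at 30 h was the highest condition in both libraries and overlapped no other, and the 5 EGF and PI3K inhibitor conditions each overlapped their neighbour in the order of means.

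KRT14, the type I partner of KRT5, stood at 10939 and 9222 CPM in unstimulated cells and at 6991 and 6797 after 15 h of EGF. It measured 8487 and 8396 CPM at 20 h and 8121 and 7558 at 30 h of EGF alone. MEK inhibitor cells held 11627 and 10194 CPM of KRT14 at 20 h and 15084 and 13569.6 at 30 h. PI3K inhibitor cells held 8263 and 6680.4 CPM at 20 h and 9126 and 9498 at 30 h. Both libraries of the MEK inhibitor at 30 h lay above every other value of KRT14. KRT14 was also the member with the smallest ratio of highest to lowest condition mean (2.08), and the only one that was lower in library 2 than in library 1 in most conditions (7 of 8).

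KRT15, the other basal type I keratin, was scarce, with 48.1 and 61.8 CPM in unstimulated cells, 3.56 and 12.8 at 15 h, 12 and 35.2 at 20 h and 29.8 and 30.4 at 30 h of EGF. The MEK inhibitor gave 14.8 and 21.7 CPM at 20 h and 177 and 164 at 30 h. The PI3K inhibitor gave 15.7 and 21.8 CPM at 20 h and 11.9 and 20.0 at 30 h. The MEK inhibitor at 30 h stood highest, unstimulated cells came next without overlap, and the other 6 conditions overlapped their neighbours. The highest condition mean was 20.9 times the lowest, the widest span of the 7 genes. Single cells carried much of these sums: the cell with the most KRT15 held 7.27% to 64.3% of the KRT15 UMIs of its condition and library (median 24.8%), for example 35 of 57 in unstimulated cells of library 1 and 66 of 123 in PI3K inhibitor cells of library 2 at 30 h.

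KRT6A, a type II stress keratin, measured 2289 and 2199.6 CPM in unstimulated cells, 3833 and 5110.2 at 15 h, 2789 and 3280.1 at 20 h and 1636 and 2168 at 30 h of EGF. MEK inhibitor cells held 3228 and 3642 CPM of KRT6A at 20 h and 3522 and 3936 at 30 h. PI3K inhibitor cells held 2669.6 and 3214 CPM at 20 h and 2105 and 3083 at 30 h. EGF at 15 h had the highest mean and EGF at 30 h the lowest, and only the latter was separate from its neighbour in the order of means. KRT6B, its near copy, was scarce, at 10.1 and 35.3 CPM in unstimulated cells, 22.1 and 75.3 at 15 h, 15.9 and 23.0 at 20 h and 7.65 and 14.4 at 30 h of EGF. It measured 12.4 and 14.2 CPM at 20 h and 10.3 and 22.8 at 30 h under the MEK inhibitor, and 10.4 and 51.5 at 20 h and 12.4 and 16.1 at 30 h under the PI3K inhibitor. Every KRT6B condition overlapped its neighbours, library 2 was 1.14 to 4.95 times library 1, and the top cell held 7.07% to 51.5% of the KRT6B UMIs.

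KRT16, the type I stress keratin that pairs with KRT6, measured 618 and 468 CPM in unstimulated cells and fell to a low range under EGF alone, with 111 and 278 at 15 h, 107 and 166 at 20 h and 74.1 and 101 at 30 h. The MEK inhibitor gave 362 and 259 CPM at 20 h and 1006 and 1028 at 30 h. The PI3K inhibitor gave 178 and 297 CPM at 20 h and 546 and 569 at 30 h. In order of means, the MEK inhibitor at 30 h stood apart at the top and EGF at 30 h apart at the bottom, with a ratio of their means of 11.6. The PI3K inhibitor at 30 h overlapped unstimulated cells, and both lay above the MEK inhibitor at 20 h, which came next.

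KRT17, a type I stress keratin also made in basal-like breast cells, measured 4580.0 and 4496 CPM in unstimulated cells, 4297 and 6918 at 15 h, 2393 and 4324 at 20 h and 1230.0 and 2645 at 30 h of EGF. MEK inhibitor cells held 3193 and 5121 CPM of KRT17 at 20 h and 4121 and 7148 at 30 h. PI3K inhibitor cells held 3457 and 5685 CPM at 20 h and 4443 and 8595 at 30 h. Library 2 lay above library 1 in 7 of 8 conditions, by a ratio of 0.982 in unstimulated cells up to 2.15 in EGF at 30 h, and neighbouring conditions overlapped throughout. Within each library EGF at 30 h was the lowest condition. At 30 h the 7 keratins together took 1.39% and 1.81% of all UMIs under EGF alone, against 2.69% and 3.25% when MEK and 1.57% and 2.38% when PI3K was inhibited.

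**Figure D1:**
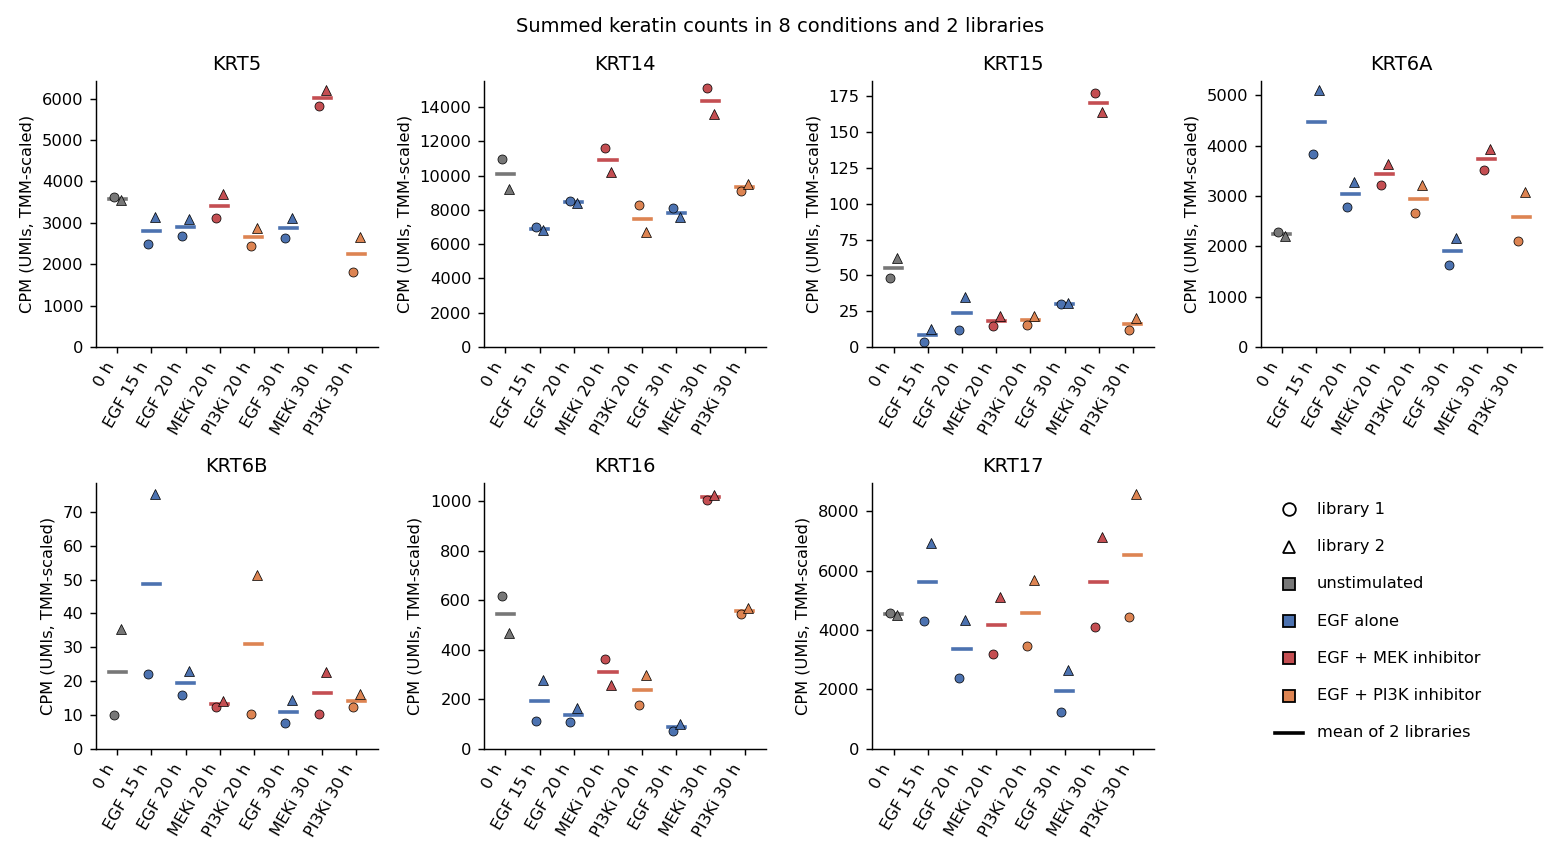
Level of each keratin (y axis, CPM after TMM scaling) in the 8 conditions (x axis), with 1 marker per library and a bar at the mean. KRT5, KRT14, KRT15 and KRT16 were highest with the MEK inhibitor at 30 h.

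Differences between conditions were tested with edgeR's quasi-likelihood test on the 16 sums with library as a block, with Benjamini-Hochberg adjustment over the 11147 genes that passed a filter on low counts, all 7 keratins among them. A difference is a log2 fold change with its standard error (SE), and a gene is called at an adjusted p under 0.05. With 2 libraries a condition, an exact two-sided permutation test of a single gene cannot give a p below 0.333, so the calls rest on the spread that the model shares across genes. Several comparisons use the same sums: the inhibitors at 1 time share their EGF control, and the EGF time points share sums with each other. Their results are therefore set side by side and not counted as independent.

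During the first 15 h of EGF the keratins moved apart: the stress type II keratins rose while KRT16 and the basal keratins fell. Of the 7, 6 were called between 15 h and unstimulated cells, 2 higher and 4 lower, beside 28.0% of all genes tested (14.1% higher, 13.9% lower). KRT6A rose by 0.95 (SE 0.10, adjusted p = 1.9e-10) and KRT6B by 1.08 (SE 0.42, adjusted p = 0.048). KRT16 fell by 1.90 (SE 0.21, adjusted p = 1.9e-10), by 2.47 in library 1 and 0.75 in library 2. KRT15 fell by 3.42 (SE 0.41, adjusted p = 3.6e-09), by 3.57 in library 1 and 2.23 in library 2. Since 1 cell held 35 of 57 and 9 of 14 of its unstimulated UMIs, the KRT15 difference without the top cell of each sum was -2.55 (adjusted p = 9.2e-05). KRT14 fell by 0.55 (SE 0.09, adjusted p = 7.4e-06) and KRT5 by 0.38 (SE 0.10, adjusted p = 0.0027). KRT17 differed by 0.20, with a 95% interval from -0.05 to 0.44. The KRT6B call was lost with DESeq2 (adjusted p = 0.10) and without the small unstimulated and 15 h sums of library 2 (adjusted p = 0.11). Without the library block 3 of the 7 were called, and scaling by library totals called KRT17 higher as well (0.36), where the median of all genes was 0.21, against 0.019 with TMM scaling.

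Between 15 h and 20 h of EGF, when 22 of 25 S phase and 30 of 30 G2/M genes rose, KRT6A, KRT6B and KRT17 fell and KRT14 and KRT15 rose. The 2 higher and 3 lower of 7 compare with 5.10% of all genes called, 3.44% higher and 1.66% lower. KRT17 fell by 0.76 (SE 0.12, adjusted p = 8.5e-06), KRT6A by 0.55 (SE 0.10, adjusted p = 6.4e-05) and KRT6B by 0.94 (SE 0.24, adjusted p = 0.0076). KRT15 rose by 2.04 (SE 0.35, adjusted p = 3.5e-05) and KRT14 by 0.29 (SE 0.09, adjusted p = 0.0497). The KRT15 difference was 1.62 in library 1 and 1.42 in library 2, and rests on few UMIs. Its sums held 21 and 9 UMIs at 15 h, and 1 cell held 30 of 75 and 51 of 110 at 20 h. KRT5 differed by 0.044 (-0.15 to 0.24) and KRT16 by -0.26 (-0.65 to 0.13). KRT6B was not called by DESeq2 (adjusted p = 0.14) or without the small sums of library 2 (adjusted p = 0.15), and without the library block 0 of 7 were called at an adjusted p and 2 at an unadjusted p under 0.05, against 4 by DESeq2.

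From 20 h to 30 h of EGF the 4 stress keratins fell together and the 3 basal keratins were not called, beside 7.79% of all genes (4.51% higher, 3.27% lower). KRT17 fell by 0.82 (SE 0.12, adjusted p = 1.1e-06), KRT6A by 0.68 (SE 0.10, adjusted p = 5.8e-07), KRT6B by 0.93 (SE 0.26, adjusted p = 0.014) and KRT16 by 0.60 (SE 0.18, adjusted p = 0.031). KRT5 differed by -0.0051 (-0.20 to 0.19), KRT14 by -0.11 (-0.29 to 0.08) and KRT15 by 0.50 (0.08 to 0.92, adjusted p = 0.15). DESeq2 kept the calls of KRT6A and KRT17 only, library totals lost that of KRT16 (adjusted p = 0.058), and without the library block 0 of 7 were called, with 1 at an unadjusted p under 0.05. Leaving out each gene's top cell lost the call of KRT6B (-0.66, adjusted p = 0.087) and made that of KRT15, which then rose by 1.20 (adjusted p = 3.8e-05).

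After 30 h of EGF 6 of the 7 keratins were lower than in unstimulated cells, beside 33.8% of all genes called, 17.6% higher and 16.2% lower. KRT16 fell by 2.76 (SE 0.20, adjusted p = 2.3e-16) and KRT17 by 1.39 (SE 0.13, adjusted p = 4.3e-13), and both stayed called with library totals, under which the median of all genes was 0.28, against 0.017 with TMM scaling. KRT15 fell by 0.88 (SE 0.30, adjusted p = 0.017), KRT14 by 0.36 (SE 0.09, adjusted p = 0.0017), KRT5 by 0.34 (SE 0.10, adjusted p = 0.0052) and KRT6A by 0.28 (SE 0.10, adjusted p = 0.028), and these 4 calls were lost with library totals. The KRT15 difference turned to 0.39 (adjusted p = 0.42) without the top cell of each sum. KRT6B differed by -0.78 (-1.79 to 0.22). In the same comparison all 30 of the 30 G2/M genes and 21 of the 25 S phase genes of the lists used were higher, and their part in the keratin differences was not tested.

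At 20 h, 5 h after the MEK inhibitor was added, 2 of the 7 keratins were called, both higher, beside 11.9% of all genes (4.80% higher, 7.15% lower). KRT16 rose by 1.23 (SE 0.17, adjusted p = 5.2e-07), by 1.76 in library 1 and 0.64 in library 2. KRT14 rose by 0.37 (SE 0.09, adjusted p = 0.0043). KRT17 differed by 0.33 (0.09 to 0.57, adjusted p = 0.064), KRT5 by 0.24 (0.05 to 0.43), KRT6A by 0.18 (-0.01 to 0.38), KRT15 by -0.19 (-0.71 to 0.32) and KRT6B by -0.67 (-1.23 to -0.11, adjusted p = 0.11). Without the filter on low counts, and without the small sums of library 2, 4 of the 7 were called, KRT17 among them in both (adjusted p = 0.0083 and 0.0002), and without the library block 0 were called, with 1 at an unadjusted p under 0.05, against 2 by DESeq2.

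When MEK had been inhibited, all 7 keratins were higher at 30 h than under EGF alone, where 37.8% of all genes were called, 18.9% higher and 19.0% lower. The median of the 7 differences was 1.07, beside 0.01 over all genes tested. KRT16 rose by 3.54 (SE 0.18, 3.18 to 3.89, adjusted p = 1.8e-22), from 87.8 ± 19.3 to 1017 ± 15.8 CPM (SD, n = 2). KRT15 rose by 2.52 (SE 0.16, adjusted p = 6.7e-19), from 30.1 ± 0.441 to 170.5 ± 8.93 CPM (SD, n = 2). KRT17 rose by 1.58 (SE 0.12, adjusted p = 2.7e-15), by 1.74 in library 1 and 1.43 in library 2. The basal pair rose by like amounts, KRT5 by 1.07 (SE 0.10, adjusted p = 2.7e-13) and KRT14 by 0.87 (SE 0.09, adjusted p = 5.6e-11), and KRT6A rose by 0.98 (SE 0.10, adjusted p = 8.6e-12). For these 6 genes the difference was positive in both libraries and was called under every alternative that gives a test.

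KRT6B rose by 0.60 (SE 0.25, adjusted p = 0.049) in the MEK inhibitor comparison at 30 h, and this call was lost with DESeq2 (adjusted p = 0.36), with library totals (0.42, adjusted p = 0.21), without the library block (adjusted p = 0.52) and without the top cell of each sum (0.53, adjusted p = 0.057). In library 2, 62 of 197 KRT6B UMIs of the MEK inhibitor at 30 h came from 1 cell. Library totals, under which the median of all genes was -0.16 (0.014 with TMM scaling), kept the other 6 calls. The fibroblast marker DCN was also higher in these cells, with the list at 49.0 and 23.7 CPM against 13.3 and 9.39 in EGF alone, while PDGFRB stayed at or below 0.38 CPM. Of the 25 S phase genes 22 were lower, and of the 30 G2/M genes 5 were higher and 2 lower. The part of these genes in the keratin differences was not tested here. A comparison within ranges of cell cycle genes is given further on as a description.

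With the PI3K inhibitor at 20 h, KRT16 rose by 0.80 (SE 0.18, adjusted p = 0.00061) and KRT17 by 0.46 (SE 0.12, adjusted p = 0.0033), the 2 members called beside 23.4% of all genes (11.4% higher, 11.9% lower). The other 5 were not called: KRT14 differed by -0.18 (-0.37 to 0.0028), KRT5 by -0.12 (-0.31 to 0.07), KRT6A by -0.05 (-0.24 to 0.15), KRT15 by -0.18 (-0.70 to 0.34) and KRT6B by 0.42 (-0.07 to 0.91). For KRT6B the libraries went opposite ways, by -0.59 and 1.14, and 40 of the 104 UMIs of library 2 came from 1 cell. DESeq2 called 0 of 7, with 3 at an unadjusted p under 0.05, and the test without the library block called 0, with 1. Library totals, under which the median of all genes was -0.14 (0.0045 with TMM scaling), called KRT5 (-0.26, adjusted p = 0.0081) and KRT14 (-0.32, adjusted p = 0.00034) lower in addition.

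By 30 h the PI3K inhibitor split the set: KRT16, KRT17, KRT6A and KRT14 were higher than with EGF alone and KRT5 and KRT15 were lower, beside 39.7% of all genes called (19.7% higher, 20.0% lower). KRT16 rose by 2.67 (SE 0.17, adjusted p = 2.9e-18), from 87.8 ± 19.3 to 558 ± 16.3 CPM (SD, n = 2). KRT17 rose by 1.77 (SE 0.12, adjusted p = 3.6e-17), by 1.85 in library 1 and 1.70 in library 2. KRT6A rose by 0.44 (SE 0.10, adjusted p = 0.00022). KRT14 rose by 0.25 (SE 0.09, adjusted p = 0.024) with TMM scaling, but differed by 0.017 (adjusted p = 0.86) with library totals, under which the median of all genes was -0.22, against 0.012 with TMM scaling. The type II basal keratin KRT5 fell by 0.38 (SE 0.10, adjusted p = 0.0011) and KRT15 by 0.87 (SE 0.21, adjusted p = 0.0008), each in both libraries. KRT6B differed by 0.35 (-0.18 to 0.88). All 30 G2/M genes and 23 of 25 S phase genes were lower in the same comparison, and without the library block 2 of the 7 keratins were called.

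**Figure D2:**
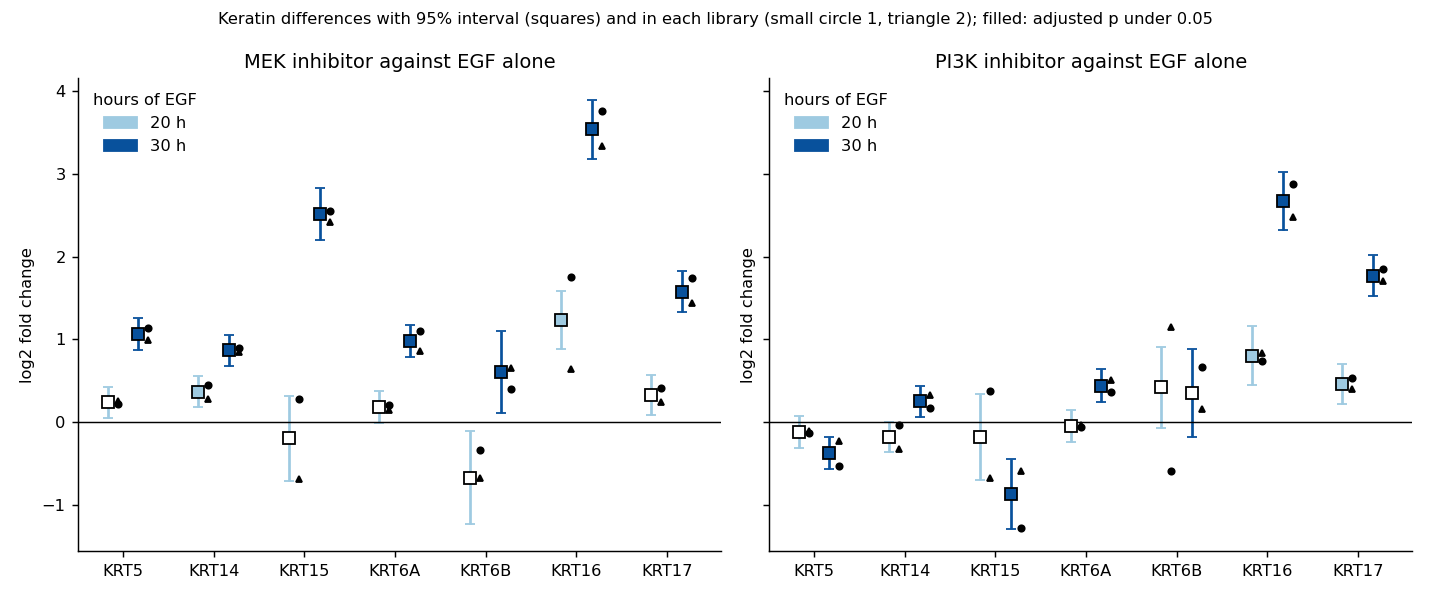
Log2 fold change of each keratin against EGF alone (y axis) for the MEK and the PI3K inhibitor at 20 h and 30 h, with squares at the fitted difference, 95% intervals, and small markers for each library (filled: adjusted p under 0.05). At 30 h all 7 are above 0 with the MEK inhibitor, while KRT5 and KRT15 are below 0 with the PI3K inhibitor.

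The inhibitors were then set against each other at the same time. At 20 h the MEK inhibitor gave more KRT14 (0.55, SE 0.09, adjusted p = 8.3e-06) and KRT5 (0.36, SE 0.10, adjusted p = 0.0043) than the PI3K inhibitor, in both libraries. KRT6B was lower by 1.09 (SE 0.28, adjusted p = 0.0034), a value that comes from library 2 (-1.82) and is 0.25 in library 1. These 3 calls stand beside 21.6% of all genes (11.2% higher, 10.4% lower). KRT16 differed by 0.43 (0.09 to 0.78, adjusted p = 0.063), by 1.02 in library 1 and -0.20 in library 2, and passed the threshold under 5 alternatives, among them library totals and the test without each gene's top cell.

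At 30 h 5 of the 7 keratins were higher with the MEK than with the PI3K inhibitor, beside 41.6% of all genes called (21.2% higher, 20.3% lower). KRT15 differed most, by 3.38 (SE 0.17, adjusted p = 6e-23), followed by KRT5 at 1.44 (SE 0.10, adjusted p = 3.3e-18). KRT16 was higher by 0.87 (SE 0.15, adjusted p = 5.4e-06), KRT14 by 0.62 (SE 0.09, adjusted p = 2e-07) and KRT6A by 0.54 (SE 0.10, adjusted p = 8.3e-06). KRT17 differed by -0.19 (-0.43 to 0.05) and KRT6B by 0.25 (-0.22 to 0.72). The KRT16 call was lost with DESeq2 (adjusted p = 0.089) and without the library block (adjusted p = 0.067).

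Whether an inhibitor's difference from EGF alone changed between 20 h and 30 h was tested as an interaction. For the MEK inhibitor it moved upward for all 7 keratins, beside 5.58% of all genes called (2.92% higher, 2.66% lower). At 20 h it was below 0 for KRT15 (-0.19) and KRT6B (-0.67), neither called, so their sign changed. The upward change was 2.71 for KRT15 (SE 0.30, adjusted p = 4.3e-09) and 2.30 for KRT16 (SE 0.24, adjusted p = 1.8e-09). It was 1.25 for KRT17 (SE 0.17, adjusted p = 7.6e-07). It was 0.83 for KRT5 (SE 0.13, adjusted p = 2.1e-05), 0.80 for KRT6A (SE 0.14, adjusted p = 6.1e-05) and 0.50 for KRT14 (SE 0.13, adjusted p = 0.011). For KRT6A, MEK inhibitor cells held 3228 and 3642 CPM at 20 h and 3522 and 3936 at 30 h. With EGF alone KRT6A fell from 2789 and 3280 to 1636 and 2168 CPM over the same time. For KRT6B the change was 1.27 (SE 0.37, adjusted p = 0.030). That call was lost with DESeq2, with library totals (adjusted p = 0.07) and without the top cells (0.86, adjusted p = 0.14). Without the library block 2 of the 7 were called.

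The PI3K inhibitor's difference from EGF alone moved upward between 20 h and 30 h for 4 keratins, beside 5.65% of all genes called (2.40% higher, 3.25% lower). These were KRT16 (1.87, SE 0.25, adjusted p = 4.1e-07), KRT17 (1.31, SE 0.17, adjusted p = 3.3e-07), KRT6A (0.49, SE 0.14, adjusted p = 0.022) and KRT14 (0.43, SE 0.13, adjusted p = 0.035). At 20 h the difference was below 0 for KRT14 (-0.18) and KRT6A (-0.05), neither called, so their sign changed. In PI3K inhibitor cells KRT6A itself fell, from 2669.6 and 3214 CPM at 20 h to 2105 and 3083 at 30 h. With EGF alone it fell from 2789 and 3280 to 1636 and 2168 CPM. KRT15 changed by -0.69 (-1.37 to -0.0069, adjusted p = 0.26), which was called without each gene's top cell (-1.56, adjusted p = 0.0046). KRT5 changed by -0.26 (-0.53 to 0.01), called with library totals (-0.35, adjusted p = 0.034), and KRT6B by -0.07 (-0.80 to 0.66). Without the library block 0 were called, with 2 at an unadjusted p under 0.05, against 4 by DESeq2.

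Compared with unstimulated cells, 30 h of EGF with the MEK inhibitor left 5 keratins higher, beside 18.1% of all genes called (9.88% higher, 8.27% lower). KRT15 was higher by 1.64 (SE 0.24, adjusted p = 3.4e-07), KRT16 by 0.78 (SE 0.18, adjusted p = 0.00079), KRT5 by 0.73 (SE 0.10, adjusted p = 7.5e-08), KRT6A by 0.70 (SE 0.10, adjusted p = 4.4e-07) and KRT14 by 0.51 (SE 0.09, adjusted p = 3.9e-05). The MEK inhibitor levels of these genes thus lay above both EGF alone at 30 h and unstimulated cells. The inhibitor was added at 15 h of EGF, when KRT5, KRT14, KRT15 and KRT16 stood lower than this. KRT6A stood higher at 15 h, at 3833 and 5110 CPM against 3522 and 3936 with the MEK inhibitor at 30 h. KRT17 held 4297 and 6918 CPM at 15 h, against 4121 and 7148. Differences from 15 h were not tested. From unstimulated cells KRT17 differed by 0.19 (-0.06 to 0.44) and KRT6B by -0.18 (-1.12 to 0.75). KRT16 was not called by DESeq2 (adjusted p = 0.16), and without the library block 2 of the 7 were called.

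With the PI3K inhibitor at 30 h, 3 keratins differed from unstimulated cells, beside 21.3% of all genes (10.7% higher, 10.5% lower). KRT5 was lower by 0.71 on the log2 scale (-0.71, SE 0.10, adjusted p = 1e-07) and KRT15 by 1.75 (-1.75, SE 0.32, adjusted p = 3.1e-05). KRT17 was higher by 0.38 (SE 0.12, adjusted p = 0.019), but by -0.044 in library 1 and 0.93 in library 2, and the difference was 0.0027 (adjusted p = 0.99) without the small sums of library 2. KRT16 differed by -0.09 (-0.45 to 0.27), KRT14 by -0.11 (-0.30 to 0.08), KRT6A by 0.16 (-0.05 to 0.36) and KRT6B by -0.43 (-1.40 to 0.53). Without the library block 1 of the 7 was called.

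Single cells show how widely a summed level was shared. Cells were thinned to 6500 UMIs each so that depth did not set the share of cells with a UMI, which left out 12 to 53 shallower cells per condition and library, among them 12 of the 29 unstimulated cells of library 2. After thinning, KRT5, KRT14 and KRT6A were present in 98.9% to 100% of cells in every condition and KRT17 in 87.0% to 100%. KRT16 was present in 30.0% and 36.3% of cells with EGF alone at 30 h (exact binomial 95% intervals 24.1% to 36.5% and 31.1% to 41.8%). It was present in 77.4% and 83.1% with the MEK inhibitor (72.4% to 81.8% and 79.8% to 86.1%) and with the PI3K inhibitor in 56.0% and 59.0% (50.6% to 61.3% and 54.3% to 63.6%). The 3 conditions did not overlap in either library, and the intervals cover counting error only. Without thinning the KRT16 shares were 44.5% and 57.6%, 85.5% and 91.9%, and 68.4% and 74.8%, in the same order. Unstimulated cells had KRT16 in 72.3% (137 cells) and 76.5% (17 cells).

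KRT16 per cell also differed in how it was spread. At 30 h the mean was 0.561 and 0.775 UMIs of 6500 under EGF alone, 5.96 and 6.78 when MEK was inhibited, and 3.5 and 3.65 when PI3K was inhibited. The median cell held 3 and 4 KRT16 UMIs with the MEK inhibitor, and 1 in both libraries with the PI3K inhibitor. The 10% of cells with the most KRT16 held 40.6% of its UMIs in each library with the MEK inhibitor, against 65.6% and 66.9% with the PI3K inhibitor and 64.8% and 61.9% with EGF alone. KRT16 was thus found in more cells and spread more evenly with the MEK inhibitor than with the PI3K inhibitor, in both libraries.

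KRT15 was present in 13.0% and 17.2% of thinned cells with EGF alone at 30 h, in 31.1% and 36.9% with the MEK inhibitor (26.1% to 36.5% and 32.9% to 41.0%) and in 3.74% and 5.76% with the PI3K inhibitor. Its order across the 3 conditions was the same as that of its summed level, in both libraries. In unstimulated cells KRT15 was in 8.03% and 5.88% of cells, below EGF alone at 30 h, although its summed level there was higher, with 1 cell holding 35 of 57 and 9 of 14 of the KRT15 UMIs. Unthinned shares were 21.2% and 29.4% for EGF alone, against 38.7% and 50.6% when MEK and 7.45% and 9.13% when PI3K was inhibited. KRT6B was present in 2.83% to 23.9% of thinned cells and was found in 4.48% and 8.0% with EGF alone at 30 h against 2.83% and 7.38% with the MEK inhibitor. Its share of cells was therefore not higher in the comparison in which its summed level was called higher.

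**Figure D3:**
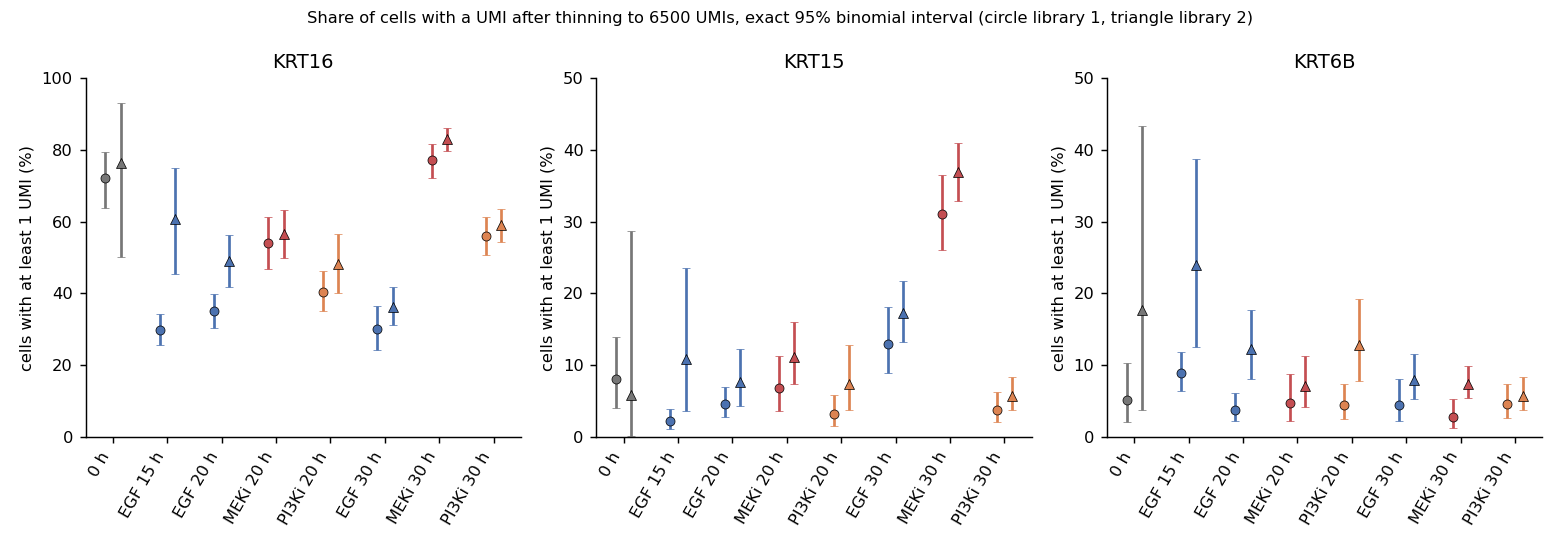
Share of cells with at least 1 UMI of KRT16, KRT15 and KRT6B (y axis, percent, cells thinned to 6500 UMIs) in the 8 conditions, with exact 95% binomial intervals, as circles for library 1 and triangles for library 2. The y axis reaches higher for KRT16 than for KRT15 and KRT6B. KRT16 lies at 30.0% and 36.3% with EGF alone at 30 h and at 77.4% and 83.1% with the MEK inhibitor.

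Co-expression was described as Spearman's rho between a pair of keratins over the thinned cells of 1 condition in 1 library, in the 14 such groups with at least 50 cells. Cells of a group share a library and a pool, so rho is a description without a p. Among all pairs of genes present in 50% of the cells or more, the middle 95% of rho ran from -0.107 to 0.11 in the narrowest group (462 cells) and from -0.175 to 0.178 among the 137 unstimulated cells. These genes were not matched to the keratins in UMIs per cell, which also affects rho, so groups outside the range are counted only as a description. KRT6B, KRT15 in unstimulated cells and at 30 h, and KRT16 with EGF alone at 30 h were present in fewer than 50% of cells. KRT16 was also low at 15 h and 20 h of EGF (111 and 278, and 107 and 166 CPM), where its share of cells is not given here. The counts of groups for KRT6B, KRT15 and KRT16 are thus not on equal terms with those of the other keratins. The pair KRT5 and KRT6A, both type II, had the highest median rho at 0.56 (0.30 to 0.66). It lay above that middle range in 14 of 14 groups. The basal partners KRT5 and KRT14 had a median of 0.41 (0.15 to 0.49, 13 of 14 groups above). The stress pair KRT6A and KRT17 had a median of 0.40 (0.09 to 0.62, 13 of 14), KRT14 and KRT6A 0.32 (0.03 to 0.47, 13 of 14) and KRT5 and KRT17 0.30 (0.15 to 0.49, 13 of 14).

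KRT16 went with KRT14 more than with the other type I stress keratin. The median rho of KRT14 and KRT16 was 0.25 (0.06 to 0.47, 12 of 14 groups above the middle range of all pairs), and shared reads between these alike genes are a limit of this value. The median was 0.19 for KRT6A and KRT16 (12 of 14) and 0.17 for KRT5 and KRT16 (11 of 14). For KRT16 and KRT17 it was 0.05 (-0.12 to 0.17), with 1 of 14 groups above. The near copies KRT6A and KRT6B had a median rho of 0.15 (8 of 14). Pairs with KRT15 had medians from -0.02 to 0.07, and with so few KRT15 UMIs per cell nothing can be read from them.

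KRT14 and KRT17, both type I, were the one pair with a negative median, other than pairs with KRT15. The median rho was -0.18, below the middle range of all pairs in 7 of 14 groups and above it in 0. The lowest values were -0.28 and -0.49 with the MEK inhibitor at 30 h, -0.21 and -0.39 with the MEK inhibitor at 20 h, and -0.34 in library 1 at 15 h of EGF. At 30 h the values were 0.00 and -0.02 with EGF alone and 0.08 and 0.03 with the PI3K inhibitor. Thinning to 4000 UMIs gave a median of -0.18 (15 groups), whereas without thinning, when deep cells have more of every gene, the medians were 0.09 for this pair and 0.79 for KRT5 and KRT6A.

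**Figure D4:**
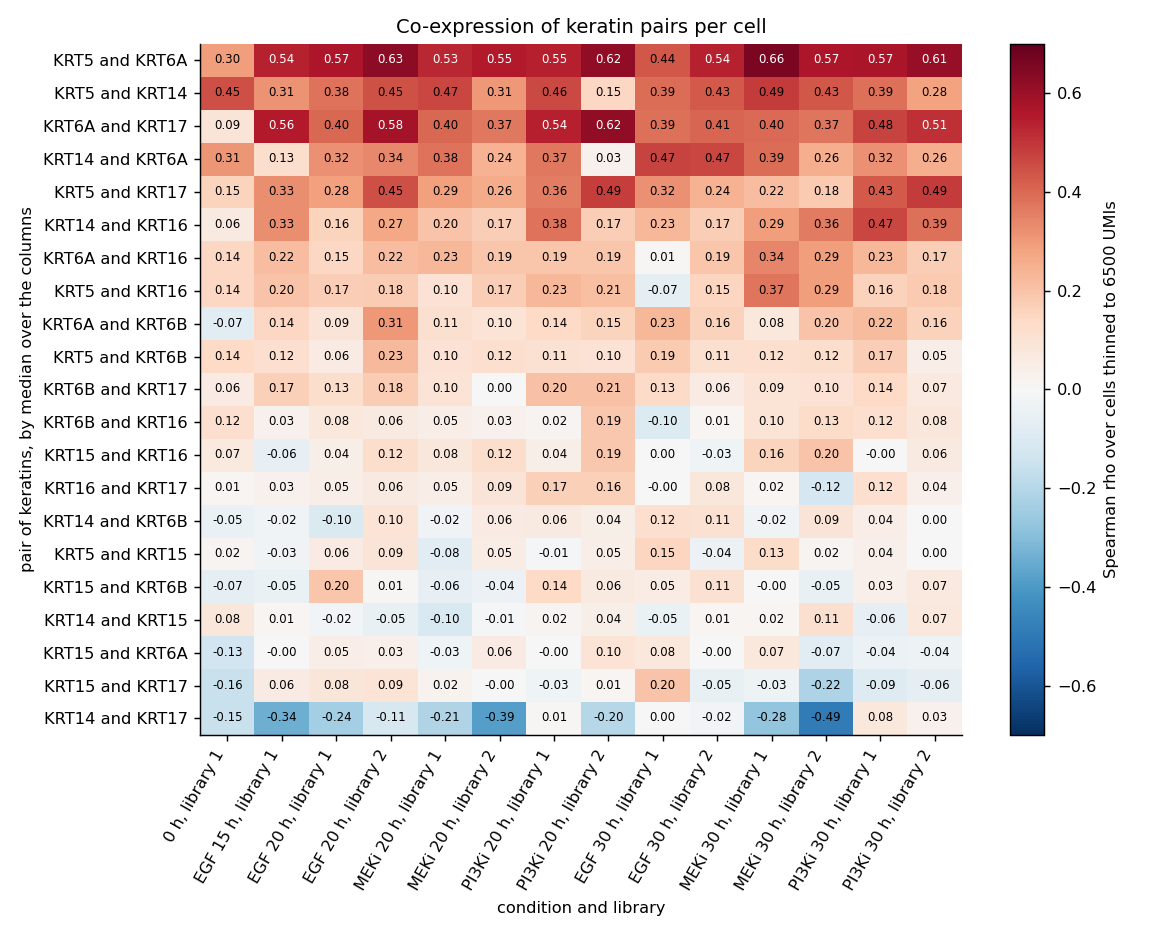
Spearman's rho of each pair of keratins (lines, ordered by their median) over cells thinned to 6500 UMIs, for each condition and library with at least 50 cells (columns). KRT5 with KRT6A is positive in all 14 columns, and KRT14 with KRT17 is lowest at -0.49, in MEK inhibitor cells of library 2 at 30 h.

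The same relation is seen in UMIs when cells of a group are ordered by KRT17 and the lowest and highest quartile are compared. With the MEK inhibitor at 30 h, cells of the lowest quartile held a mean of 1.24 and 5.72 KRT17 UMIs and those of the highest 65.3 and 109. KRT14 was lower in the cells with more KRT17, at 71.6 against 98.9 UMIs (library 1) and 65.2 against 111 UMIs (library 2). KRT5 went the other way, from 31.7 to 38.9 and from 39.2 to 45.4 UMIs, and so did KRT6A, from 15.4 to 27.5 and from 20.9 to 33.9. With EGF alone at 30 h KRT14 measured 56.7 and 58.4 UMIs in the lowest quartile and 55.2 and 59.3 in the highest, and with the PI3K inhibitor 52.2 and 64.2 against 56.0 and 63.5. Over the 14 groups KRT5 and KRT6A were higher in the highest KRT17 quartile in 14, and KRT14 was lower in 11. These values show which keratins were high in the same cells, and since each cell holds the same number of UMIs, a keratin can be lower where another is higher.

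**Figure D5:**
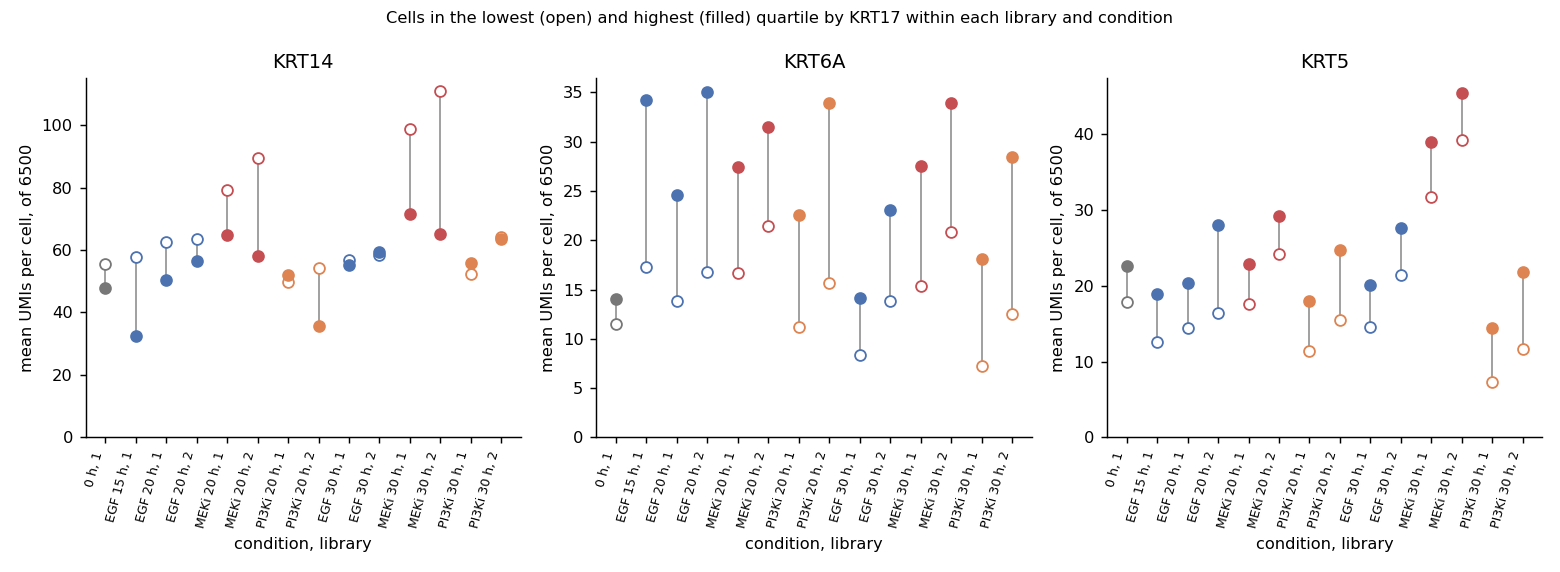
Mean UMIs per thinned cell (y axis, of 6500) of KRT14, KRT6A and KRT5 in the quartile of cells with the least (open) and the most (filled) KRT17, for each condition and library (x axis). With the MEK inhibitor at 30 h KRT14 is lower in the quartile with the most KRT17, at 71.6 against 98.9 UMIs in library 1 and 65.2 against 111 in library 2.

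Because the conditions differ in cell cycle genes, keratins were also compared within ranges of the summed 25 S phase and 30 G2/M genes. Cells of a library were split into 3 ranges by that sum, at 4 and 13 UMIs in library 1 and at 8 and 36 in library 2. The high range has no upper limit, and S phase and G2/M genes are pooled. Cells within a range can therefore still differ in these genes, and the part of these genes in the keratin differences was not tested. At 30 h the low range held 13.9% and 7.38% of cells under EGF alone (31 and 24 cells). It held 51.6% and 28.8% when MEK and 71.6% and 67.0% when PI3K was inhibited. Within the low, middle and high range, the log2 ratio of mean KRT16 (plus 0.1 UMIs) of the MEK inhibitor over EGF alone at 30 h was 2.91, 3.32 and 2.5 in library 1 and 1.84, 3.47 and 2.66 in library 2. For KRT5 it was 0.97, 1.23 and 0.86 in library 1 and 0.53, 0.63 and 0.78 in library 2, and for KRT17 0.71, 1.98 and 1.72 and 0.59, 1.14 and 1.32. For KRT14 it was 0.58, 0.43 and 0.70 in library 1 and 0.24, 0.53 and 0.68 in library 2, for KRT15 1.69, 2.52 and 1.79 and 2.60, 2.11 and 1.5, and for KRT6A 0.59, 1.01 and 0.89 and 0.090, 0.57 and 0.63. These 6 keratins were thus higher in every range, by little for KRT6A in the low range of library 2. The scarce KRT6B was lower in 5 of 6 ranges, at -0.70, -0.11 and -0.28 in library 1 and -0.65, 0.48 and -0.22 in library 2, although its sum was called higher.

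With the PI3K inhibitor at 30 h the KRT16 ratio was 2.12, 1.63 and 0.37 in library 1, and 0.59 and 1.33 in the low and middle ranges of library 2, whose high range held 6 cells. KRT5 was lower in each range, by -0.74, -0.53 and -1.03 in library 1 and -0.92 and -0.73 in library 2. KRT14, which was called slightly higher in the sums with TMM scaling, was lower in each range, by -0.20, -0.38 and -0.42 in library 1 and -0.39 and -0.23 in library 2, on the scale of equal UMIs per cell. KRT6A, also called higher in the sums, was lower in 4 of 5 ranges, at -0.13, 0.17 and -0.32 in library 1 and -0.50 and -0.22 in library 2. KRT17 was higher in all 5, by 1.15, 2.22 and 0.90 in library 1 and 0.88 and 0.69 in library 2. KRT15 stood at -1.40, -0.77 and -0.72 in library 1 and 0.064 and -0.52 in library 2, and KRT6B at -0.27, -0.18 and -0.21 and -1.5 and -0.57. Across single cells the median rho with the summed G2/M genes was -0.19 for KRT6A, -0.17 for KRT14 and -0.11 for KRT16, the last negative in 14 of 14 groups.

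Across the 8 conditions, the patterns of KRT5 and KRT14 had a Pearson's r of 0.81 in library 1 and 0.79 in library 2 on log2 CPM, and those of KRT5 and KRT15 0.81 and 0.84. KRT14 and KRT16 had 0.84 and 0.67, and KRT16 and KRT17 0.69 and 0.78. The 8 points of a library share its pool and depth, so these are descriptions. Among the 5922 genes that reached 20 CPM, the gene most like KRT16 was TRIM29 (lower r of the libraries 0.94), followed by FBXO2 (0.93) and JUP (0.92), the gene of plakoglobin in desmosomes. KRT5 was most like ARL6IP5 (0.95), KRT14 like MSRB2 (0.91), KRT15 like TECR (0.92), KRT6A like LINC01133 (0.91) and KRT17 like RRAS (0.92). KRT6B had no pattern partner above 0.73 (CTTN).

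The lists of genes around keratin filaments are given as counts beside the keratins. Of 22 other keratins, 16 were in both tables and 10 were tested, and with the MEK inhibitor at 30 h 7 were higher and 2 lower (median 2.33), beside 37.8% of all genes called. KRT8, a type II keratin of simple epithelia, rose by 2.89 (SE 0.14, adjusted p = 1.8e-22), from 31.9 and 24.7 to 176 and 230 CPM. KRT6C, a close copy of KRT6A and KRT6B, went from 0.792 and 1.52 to 4.02 and 19.0 CPM. KRT1 and KRT13, keratins of differentiating layers, stood at 0 and 0.338 CPM with EGF alone and at 4.27 and 3.94, and 1.26 and 5.91, with the MEK inhibitor. With the PI3K inhibitor at 30 h 4 of the 10 were higher and 1 lower (median 0.52), beside 39.7% of all genes called, and KRT8 rose by 1.24 (SE 0.16, adjusted p = 9.1e-09).

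Of 14 desmosome and plakin genes, which anchor keratin filaments at cell contacts, 13 were tested, and with the MEK inhibitor at 30 h 10 were higher and 1 lower (median 0.82). PPL (periplakin) rose by 2.45, from 6.6 and 7.78 to 41.4 and 39.2 CPM, and DSG3 (desmoglein) by 1.54, from 34.8 and 60.5 to 118 and 156 CPM. DSC2 rose by 1.84, and PKP2, a plakophilin, fell by 1.51. With the PI3K inhibitor at 30 h 9 of 13 were higher and 0 lower (median 0.37), with PPL up by 2.18 and PLEC (plectin) by 1.40, from 174 and 177 to 492 and 435 CPM. All of these differences had an adjusted p below 0.05 in edgeR's quasi-likelihood test, beside 37.8% and 39.7% of all genes called.

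Of 31 transcription factors linked to keratin genes or keratinocyte differentiation, 26 were tested, and 16 were higher and 3 lower with the MEK inhibitor at 30 h (median 0.46), against 12 and 2 with the PI3K inhibitor (median 0.46), beside 37.8% and 39.7% of all genes called. FOSL2, an AP-1 subunit, rose by 1.65 with the MEK inhibitor, while FOSL1, another subunit that ERK signalling induces, fell by 2.37, from 27.2 and 34.0 to 4.77 and 6.6 CPM. Of the keratinocyte stress and differentiation genes 16 were tested, and 4 were higher and 2 lower with the MEK inhibitor at 30 h, and 1 higher and 6 lower with the PI3K inhibitor. These counts, 6 of 16 and 7 of 16, are near the shares of all genes called. TGM1, a transglutaminase of the cornified envelope, rose by 1.39 with the MEK inhibitor, from 26.1 and 37.9 to 77.6 and 91.5 CPM. S100A9 and S100A8, which are often induced with the stress keratins in epidermis, fell by 2.40 and 1.87 with the MEK inhibitor, S100A9 from 152 and 83.4 to 15.8 and 23.4 CPM.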

How the data were processed

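Per the submitters' processing notes, Cell Ranger 3.0.2 and Seurat (version not given) and the GRCh38 build were used. Which annotation release, strand setting and read end were used is not stated in the sources used here. The authors deposited 1 table of raw UMI counts per library (genes by cells) with tag calls, which name the condition of each cell. Tests on the tables showed whole numbers, 1502 or more genes and at most 10.0% mitochondrial UMIs per cell, and tag doublets absent. No further cell was removed.

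Counts were summed per condition and library (213216 to 8508948 UMIs) and tested with edgeR 4.0.16 (TMM, filterByExpr, quasi-likelihood F test, library as block, 16 sums, 7 residual degrees of freedom) in R 4.3.3. The block follows from the labels, by which each library is 1 biological replicate holding all conditions. Deviations from condition means of sums from the same library correlated with a median r of 0.64 (0.37 to 0.75, 28 pairs of conditions, 3090 genes). With library as a block, the shift between the 2 pools is taken out before testing. P-values therefore describe how far differences between conditions varied between the 2 pools, with that spread estimated in part across genes. The alternatives were DESeq2 1.42.0, library totals, no filter, no block, each library alone, no small sums, no cells above the 90th percentile of UMIs and, added after seeing the data, no top cell of each keratin. On simulated counts for the MEK inhibitor at 30 h (10868 genes), log2 changes of 0.5, 1 and 2 were recovered in 51.5%, 86.6% and 100% of cases, and 10 of 10668 unchanged genes were called. Per-cell values used numpy 2.4.6 and scipy 1.17.1 after random thinning to 6500 UMIs. Positions and coding sequences came from GENCODE release 29. All 7 members are named throughout. From each other list, up to 4 called genes with the largest difference for the MEK inhibitor at 30 h and up to 2 for the PI3K inhibitor could be named, as could the 3 genes with the most similar pattern. One gene that this rule names is not reported here. The 7 genes, the lists and the comparisons were chosen with earlier results of these data known. The cell type lists were breast epithelial, luminal, contractile myoepithelial (81.0 to 697 CPM summed, 1 of 5 measured genes at 20 CPM), fibroblast, immune (7.52 to 37.5 CPM) and endothelial (at most 4.88 CPM).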

Additional observations from a re-analysis of the deposited data

Results flagged for a closer look

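The difference between an inhibitor and EGF alone was tested for change between 20 h and 30 h with edgeR's quasi-likelihood test, and 11 keratin results passed. For the MEK inhibitor the difference moved upward on the log2 scale for KRT15 by 2.71, KRT16 by 2.30, KRT6B by 1.27 and KRT17 by 1.25. It moved upward for KRT5 by 0.83, KRT6A by 0.80 and KRT14 by 0.50. The change was upward in both libraries for each of the 7. The fitted difference at 20 h was below 0 for KRT15 and KRT6B, neither called, and for KRT15 the libraries differed in sign. For the PI3K inhibitor the difference moved upward for KRT16 by 1.87, KRT17 by 1.31, KRT6A by 0.49 and KRT14 by 0.43. This was so in both libraries, and for KRT6A and KRT14 it started from below 0. KRT15 and KRT5 were not called there, and the difference between the changes under the inhibitors was not tested.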

How the results depend on the processing

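Over 98 differences (7 keratins in 14 comparisons), DESeq2 lost 12 calls, library totals lost 8 and made 6, no filter lost 1 and made 7, leaving out the unstimulated and 15 h sums of library 2 lost 3 and made 6, leaving out cells above the 90th percentile of UMIs lost 4 and made 3, and leaving out each keratin's top cell, an alternative chosen after seeing the data, lost 4, made 4 and reversed 1. That 1 is KRT15 after 30 h of EGF against unstimulated cells, at 0.39. Library 2 alone moved 48 of the 98 differences by more than the fitted SE, and library 1 alone moved 46 and reversed 2 called ones. One was KRT6B between the MEK and PI3K inhibitors at 20 h, at -1.82 in library 2 and 0.25 in library 1. The other was KRT17 between the PI3K inhibitor at 30 h and unstimulated cells, at -0.044 in library 1 and 0.93 in library 2. The cause was not tested. With library totals 4 of 7 keratins were called for the PI3K inhibitor at 20 h, 5 between the inhibitors at 20 h and 2 for EGF at 30 h against unstimulated cells. Without the filter, and without the small sums of library 2, 4 were called for the MEK inhibitor at 20 h and 5 between the inhibitors at 20 h. DESeq2 called 2 for EGF at 30 h against 20 h, and for the PI3K inhibitor at 20 h 0, with 3 at an unadjusted p under 0.05.

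The pairing of conditions within a library matters: without the replicate block 44 calls were lost. The count of keratins called went from 6 to 3 for EGF at 15 h, from 6 to 2 for EGF at 30 h, from 5 to 2 for the MEK inhibitor at 30 h and from 3 to 1 for the PI3K inhibitor at 30 h, all against unstimulated cells. It went from 6 to 2 for the PI3K inhibitor against EGF alone at 30 h, from 5 to 3 between the inhibitors at 30 h and from 7 to 2 for the change of the MEK inhibitor difference. It was 0 for EGF at 20 h against 15 h (2 at an unadjusted p under 0.05), EGF at 30 h against 20 h (1), the MEK inhibitor at 20 h (1), the PI3K inhibitor at 20 h (1), the inhibitors at 20 h (1) and the change of the PI3K inhibitor difference (2), where DESeq2 called 4, 2, 2, 0, 2 and 4. Over all genes, calls without the block were beyond 1.5 times fewer in 13 of 14 comparisons (for example 2137 against 4216 for the MEK inhibitor at 30 h, and 6 against 630 for the change of the PI3K inhibitor difference), and DESeq2's in 5 of 14 (lowest 479 against 868). Depth limits KRT15 and KRT6B most, whose sums hold few UMIs from few cells.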

Other observations

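Each keratin was also set against 3032 other genes over the thinned cells of the 14 groups, and the genes named here were chosen after their values were seen. Cells rich in KRT5 and KRT6A were also rich in S100A14 (median rho 0.35 and 0.39) and in PERP, a desmosome-associated membrane protein (0.34 and 0.32), positive in 14 of 14 groups for both. They held less VIM, the intermediate filament protein vimentin of mesenchymal cells (median rho -0.34 with KRT5 and -0.38 with KRT6A, negative in 14 of 14 groups). KRT16 went with SLPI, a secreted protease inhibitor (0.28), SAA1 (0.21) and DSP, desmoplakin (0.21), and against MT2A, a metallothionein (-0.31), and ITGB4, an integrin of basal cells (-0.21), with the same sign in 14 of 14 groups. SLPI, DSP and MT2A were not particular to KRT16. The median rho of SLPI was 0.34 with KRT6A and 0.26 with KRT5, and that of DSP was 0.17 with KRT14. For MT2A it was -0.29 with KRT14, -0.25 with KRT6A and -0.21 with KRT5. KRT17 went with ACTB, a cytoplasmic actin (0.33), in 14 of 14 groups, whereas KRT14 went against it (-0.20) in 13 of 14. The cells of a group share a library, a pool and a fixed UMI total, and these values are descriptions.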
